A study of Mus musculus with 9 samples.

Results

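The genes described here encode actin, proteins that bind it and components of focal adhesions, and many are known targets of serum response factor (SRF). Of 49 listed gene names, 43 were analysed, each with 1 row, and the 42 with a mean of 1 FPKM or more over the 9 libraries were kept, out of 6965 genes that passed the same level. FPKM, a fragment number divided by transcript length and library size, is a level per length, so genes can be compared with each other. The level over all 9 libraries was the measured value that chose the members, and the rule used no difference between groups, although the names were proposed with earlier results of these data known. The kept gene nearest the limit was Mylk, with a mean of 1.66 FPKM, and the name just outside it was Synpo2, with 0.201 FPKM. None of the 42 had a group mean under 1 FPKM, the lowest being 1.03 FPKM. Flna, Cfl1, Tln1, Myl12b, Ablim1 and Tuft1 were not analysed here.

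RNA came from ROC6, a mouse oral squamous cancer cell line, in 3 groups of 3 libraries: CSMD3 knockout with guide 2, CSMD3 knockout with guide 1, and a WT control with no knockout. The gene, Csmd3 in the mouse, encodes a large membrane protein with CUB and sushi domains, and the knockout labels could not be checked, because its level was not analysed here. The series describes each knockout as 1 clone, so a difference between a knockout and the control cannot be told apart from a difference between clones. All cells grew in the same serum-containing medium, and no label says whether the libraries of a group are separate cultures. The p-values therefore cover only the variation among these libraries, possibly technical.

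SRF binds a short DNA element called the CArG box. Its coactivators, the myocardin-related transcription factors encoded by Mrtfa and Mrtfb, are held back by monomeric actin and enter the nucleus when monomers are drawn into filaments, where they raise transcription of actin and of many actin-binding proteins. Those proteins assemble stress fibres, contractile bundles that end at focal adhesions, where the cell grips its matrix.

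Summed FPKM over uniquely named genes lay between 162625 and 168620 per library. Read totals are unknown, but the spacing of the lowest values put the relative depth of the libraries between 0.809 and 1.26 times that of control replicate 1. Of 15446 uniquely named rows, 15441 have guide 2 and guide 1 means that are both above or both below the control mean. A direction shared by the guides is thus a property of the table, and the counts that follow are given for each guide by itself. The rows appear to be a selected set, in which genes with the guides on opposite sides of the control are almost absent. Shares of all genes below are therefore shares of the rows tested, not of every expressed gene. The library kit keeps strand, but no source used here gives the counting setting. Levels are uncertain where exons overlap a gene on the other strand, as Mrtfa does with Sgsm3, Vcl with Ap3m1 and Actn4 with Capn12. Zyx overlaps Epha1, but Epha1 reached at most 1.14 FPKM in any library, against 34.2 for Ap3m1 and 11.35 for Sgsm3. Both knockouts are set against the same 3 control libraries. Of 21 squamous epithelial markers, 5 passed 1 FPKM, among them the adhesion and junction genes Perp and Jup, while Krt8, Krt13, Krt15, Krt16, Krt17, Col17a1, Itgb4 and Lamb3 reached at most 0.920 FPKM in any library, and Krt5, Krt14, Trp63, Epcam and Cdh1 were not analysed here. In bulk RNA, fewer cells of a type and less RNA per cell cannot be told apart.

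Most of the 42 genes were higher than in the control with guide 2, and most with guide 1. Tested with limma on log2(FPKM + 1) and adjusted over all 6965 genes, 35 rose and 4 fell with guide 2, where 31.9% of all genes were called higher and 33.5% lower. With guide 1, 37 rose and 4 fell, where the background was 30.2% and 37.9%. The median log2 fold change of the members was 0.62 with guide 2 and 0.84 with guide 1, against medians of -0.03 and -0.04 over all genes tested. Called increases of at least 1 log2 unit were found in 7 members with guide 2 and 19 with guide 1, where the background was 4.02% and 5.69%. Called decreases of that size were found in 2 members with guide 2 and 3 with guide 1, where it was 4.13% and 4.75%. In the mean of both knockouts 37 members were called higher and 5 lower, where 37.8% and 43.3% of all genes were. With guide 2 the 3 knockout libraries lay above all 3 control libraries in 36 members and below them in 5, against 33.1% and 35.5% of all genes. With guide 1 the counts were 37 and 5, against 32.3% and 39.7%. The 5 members below the control in both knockouts were Synpo, Zyx, Pdlim4, Pxn and Cnn1. Given how the names were proposed, these counts describe the genes and carry no test of the list.

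**Figure D1:**
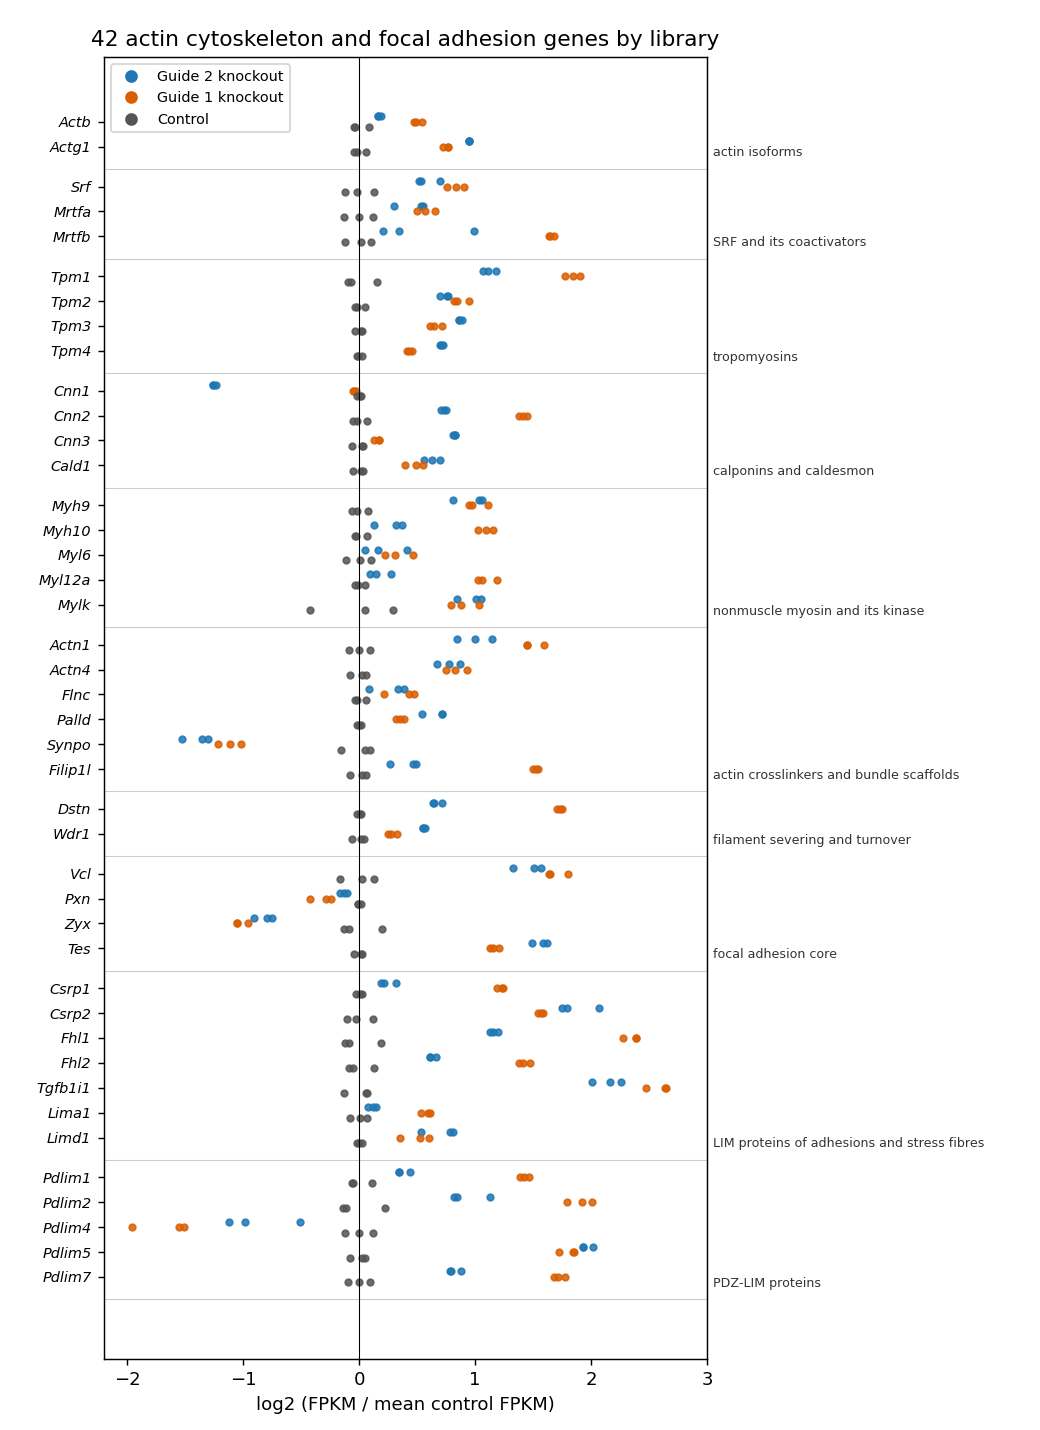
Each point is 1 library, placed by its FPKM relative to the mean of the 3 control libraries on a log2 axis, with the 42 genes grouped by role. Knockout points lie to the right of the control points in most rows, with Tgfb1i1 and Fhl1 farthest to the right and Synpo, Zyx, Pdlim4, Pxn and Cnn1 to the left.

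**Figure D2:**
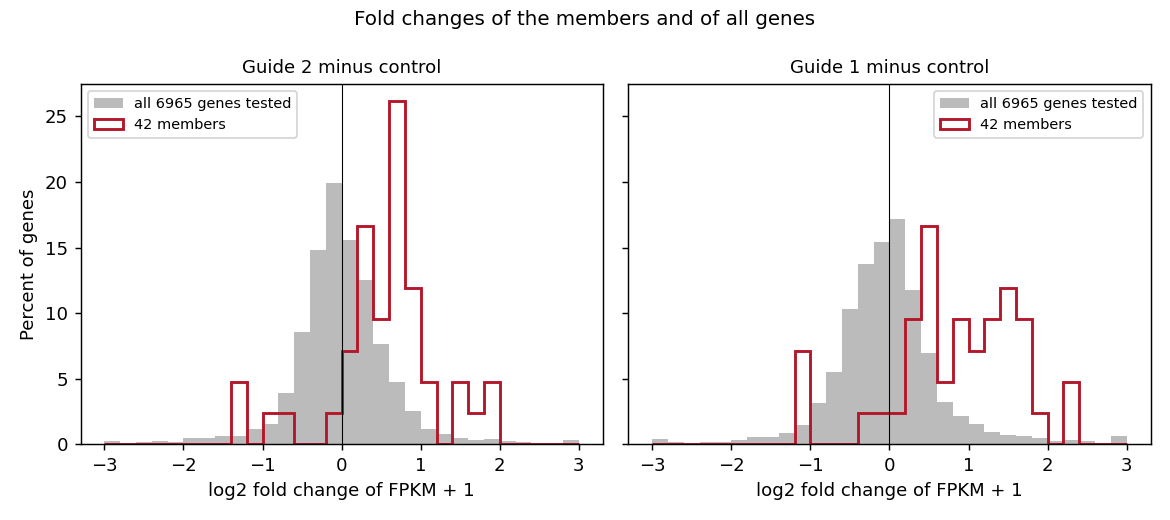
The histograms give the percent of genes by log2 fold change against control, for the 42 members in red and for all 6965 genes tested in grey, with values beyond 3 log2 units placed in the outermost bars. The members centre on 0.62 with guide 2 and 0.84 with guide 1, and all genes centre near 0.

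Many of these genes were also abundant. Their median level over the 9 libraries was 46.4 FPKM, against 8.50 FPKM for all genes tested, and 22 of the 42 stood in the top 10% of genes by level. Together they held 4.13% ± 0.0594 of the summed FPKM with guide 2, 4.97% ± 0.0112 with guide 1 and 2.93% ± 0.111 in controls (SD, n = 3 each). Within a group the replicates were close, with a median coefficient of variation of 5.09% with guide 2, 4.33% with guide 1 and 4.97% in controls.

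The promoters of these genes were searched for the CArG box, because the SRF site is what gives the group its name. RefSeq promoters of GRCm38.p6, each from 250 bases before to 50 bases after a transcript start, were held for 35 of the 42 genes. The pattern searched is its own reverse complement, so a search of the printed strand covers both, although a single box need not read the same on each. It was present in 9 of the 35 genes, or 25.7%, against 1.79% of tested genes that had a promoter. By promoter it was present in 10 of their 49, or 20.4%, against 1.63% of all 32851 promoters in the table. The names were listed as SRF-dependent, so the excess may follow from that choice and supports nothing. The 9 genes were Srf, Actg1, Vcl, Cnn2, Fhl1, Fhl2, Filip1l, Lima1 and Myl6. Of these, Fhl1, Filip1l and Myl6 also had a promoter without the box, at another transcript start. With guide 2, 7 of the 9 were called higher, against 31.9% of all genes, with log2 fold changes from 0.11 to 1.42 and a median of 0.61. With guide 1 all 9 were, against 30.2% of all genes, with a range of 0.33 to 2.34 and a median of 1.39. Of the 26 genes with a promoter but no box, 23 were called higher with each guide. They had medians of 0.62 with guide 2 and 0.84 with guide 1 and ranged from -1.24 to 1.83 with guide 2 and from -1.15 to 1.84 with guide 1, so members with and without the box overlapped. A match is a description of the letters, and a missing match says only that they are absent from this window. The promoters of Srf, Vcl, Actg1, Cnn2 and Fhl1 follow with the box in capitals, since these genes span the regulator, the adhesion linker, the main filament protein and the larger increases. They lie at chr17:46556113-46556412 on the minus strand, chr14:20929148-20929447 on the plus strand, chr11:120348446-120348745 on the minus strand, chr10:79988350-79988649 on the plus strand and chrX:56779433-56779732 on the plus strand, all in GRCm38.p6.
Srf: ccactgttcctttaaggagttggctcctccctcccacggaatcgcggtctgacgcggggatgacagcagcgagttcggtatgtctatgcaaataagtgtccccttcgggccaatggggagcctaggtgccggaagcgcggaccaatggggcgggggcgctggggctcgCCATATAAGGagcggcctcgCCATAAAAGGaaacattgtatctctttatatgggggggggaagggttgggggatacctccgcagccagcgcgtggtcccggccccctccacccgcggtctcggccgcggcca
Vcl: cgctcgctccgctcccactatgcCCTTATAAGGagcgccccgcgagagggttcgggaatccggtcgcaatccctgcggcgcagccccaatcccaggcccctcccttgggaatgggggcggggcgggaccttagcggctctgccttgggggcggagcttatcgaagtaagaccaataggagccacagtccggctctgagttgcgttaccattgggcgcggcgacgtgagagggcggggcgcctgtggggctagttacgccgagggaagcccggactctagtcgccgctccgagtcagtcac
Actg1: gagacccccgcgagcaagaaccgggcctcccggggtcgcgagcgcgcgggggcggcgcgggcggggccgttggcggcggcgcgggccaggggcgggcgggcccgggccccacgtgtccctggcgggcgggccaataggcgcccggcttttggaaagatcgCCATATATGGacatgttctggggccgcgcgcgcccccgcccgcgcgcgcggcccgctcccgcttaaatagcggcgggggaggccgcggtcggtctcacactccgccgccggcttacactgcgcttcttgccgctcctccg
Cnn2: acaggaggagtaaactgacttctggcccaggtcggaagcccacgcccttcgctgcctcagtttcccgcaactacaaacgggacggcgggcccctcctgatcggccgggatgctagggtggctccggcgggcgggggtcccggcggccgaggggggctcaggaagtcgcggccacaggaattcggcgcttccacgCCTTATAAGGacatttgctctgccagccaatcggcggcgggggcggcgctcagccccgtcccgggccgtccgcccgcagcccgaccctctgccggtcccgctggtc
Fhl1: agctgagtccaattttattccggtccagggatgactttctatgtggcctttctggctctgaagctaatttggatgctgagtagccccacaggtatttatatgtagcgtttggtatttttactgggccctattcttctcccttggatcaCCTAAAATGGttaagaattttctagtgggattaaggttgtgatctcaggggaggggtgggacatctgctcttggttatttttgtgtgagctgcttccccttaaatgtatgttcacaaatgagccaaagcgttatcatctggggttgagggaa
The boxes begin 82 and 62 bases before the start in Srf, 227 bases before it in Vcl, 90 in Actg1, 56 in Cnn2 and 102 in Fhl1.

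SRF itself and both of its coactivators were higher in the knockouts. Srf, whose promoter holds a pair of boxes, measured 51.3, 50.6 and 57.5 FPKM with guide 2, 63.0, 59.6 and 66.3 with guide 1 and 35.0, 32.5 and 38.7 in controls. The knockout libraries lay above all controls, with log2 fold changes of 0.57 with guide 2 and 0.82 with guide 1 (SE 0.073 for each, limma adjusted p = 5.44e-05 and 3.28e-06). Mrtfa, the coactivator best known from fibroblasts, measured 16.1, 19.0 and 18.9 FPKM with guide 2, 19.3, 18.3 and 20.5 FPKM with guide 1 and 14.2, 11.9 and 13.0 FPKM in controls. It rose as well, with log2 fold changes of 0.44 with guide 2 and 0.54 with guide 1 (SE 0.08 for each, limma adjusted p = 0.000728 and 0.000139). Mrtfb measured 2.45, 4.23 and 2.69 FPKM with guide 2, 6.61, 6.67 and 6.81 with guide 1 and 2.28, 1.95 and 2.15 in controls. The guide 1 libraries were tightly grouped and far above the others, while guide 2 replicate 2 stood apart from the other 2 guide 2 libraries. Its log2 fold changes were 0.38 with guide 2 and 1.30 with guide 1, and the guide 2 call (limma adjusted p = 0.0268) was lost without control replicate 2 or 3 (limma adjusted p between 0.054 and 0.0799). It was also lost with no filter on low values (limma adjusted p = 0.0833) and when only the libraries compared were fitted (limma adjusted p = 0.0529). Without guide 2 replicate 2 the guide 2 log2 fold change of Mrtfb was 0.19 (limma adjusted p = 0.0426).

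The cytoplasmic actins, which build most filaments of non-muscle cells, were the most abundant members and rose with each guide. Actb measured 1752, 1726 and 1724 FPKM with guide 2, 2239, 2167 and 2138 with guide 1 and 1499, 1492 and 1631 in controls. That is 1.13 times the control mean with guide 2 and 1.42 times with guide 1. The 3 groups did not overlap, but the guide 2 increase of 0.17 log2 units (SE 0.044, limma adjusted p = 0.0061) was not called with no filter on low values (limma adjusted p = 0.227). The guide 1 increase was 0.50 log2 units (limma adjusted p = 3.1e-06). Quantile normalization, which gives genes of the same rank the same value, gave 0.19 both for guide 1 and for the mean of both knockouts. It therefore cannot size the change of Actb against control. Actg1 measured 1588, 1592 and 1590.1 FPKM with guide 2, 1399, 1362 and 1401 with guide 1 and 815, 799.9 and 857 in controls. Its 3 groups did not overlap either, with log2 fold changes of 0.95 with guide 2 and 0.75 with guide 1 (SE 0.039 for each, limma adjusted p = 1.37e-08 and 5.35e-08). Of all 50-base windows in the longest Actg1 transcript, 56.7% also occur in other annotated transcripts, chiefly of Gm12715, so reads may be divided between the rows. For Actb that share was 14.2%. The Gm12715 row gave 310.3 ± 1.94 FPKM with guide 2, 263 ± 9.63 with guide 1 and 158 ± 9.57 in controls (SD, n = 3 each). The summed level of both cytoplasmic actins was 3324 ± 13.9 FPKM with guide 2, 3568 ± 60.3 with guide 1 and 2365 ± 107 in controls (SD, n = 3 each). Actb made up 52.2% ± 0.257 with guide 2, 61.1% ± 0.621 with guide 1 and 65.1% ± 0.388 in controls of that sum, so gamma-actin held a larger share in both knockouts, most of all with guide 2. When the smooth muscle actins Acta2 and Actg2, which are also SRF targets, were added, Acta2 alone made up 20.4% ± 0.162 with guide 2, 31.9% ± 0.765 with guide 1 and 8.14% ± 0.182 in controls of the sum of the 4 genes.

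Tropomyosins are coiled-coil proteins that lie along actin filaments and set which other proteins can bind them. All 4 genes rose with each guide. Tpm1, whose products are enriched in stress fibres, measured 273, 253 and 261 FPKM with guide 2, 451, 414 and 434 with guide 1 and 115, 113 and 134 in controls. The means were 2.17 times the control mean with guide 2 and 3.58 times with guide 1. It had log2 fold changes of 1.12 with guide 2 and 1.84 with guide 1 (SE 0.066 for each, limma adjusted p = 1.87e-07 and 3.8e-09), the largest change of the family with either guide. Tpm2 measured 101, 101 and 96.5 FPKM with guide 2, 105, 114 and 107 FPKM with guide 1 and 57.9, 61.7 and 58.6 FPKM in controls, and Tpm2 changed by 0.73 with guide 2 and 0.86 with guide 1 on the log2 scale (limma adjusted p = 3.67e-07 and 8.91e-08). Tpm3 measured 93.3, 93.2 and 94.8 FPKM with guide 2, 84.3, 80.1 and 78.6 with guide 1 and 51.8, 50.2 and 52.2 in controls, with log2 fold changes of 0.85 with guide 2 and 0.65 with guide 1 (limma adjusted p = 3.99e-08 and 2.46e-07). Tpm3 shares 62.4% of its 50-base windows with the annotated gene Tpm3-rs7, whose row gave 22.8 ± 0.409 FPKM with guide 2, 18.8 ± 0.683 with guide 1 and 12.2 ± 0.923 in controls (SD, n = 3 each). Tpm4, the short form abundant in many cell types, measured 356, 351 and 353 FPKM with guide 2, 296, 288 and 291 FPKM with guide 1 and 220.1, 215 and 214 FPKM in controls, with log2 fold changes of 0.71 with guide 2 and 0.43 with guide 1 (limma adjusted p = 5.15e-08 and 1.65e-06). None of the 4 genes had a knockout library within the range of the controls.

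The makeup of the tropomyosin pool also differed between groups. The summed level was 809 ± 12.7 FPKM with guide 2, 914 ± 19.9 with guide 1 and 448 ± 9.79 in controls (SD, n = 3 each). Tpm1 supplied 32.4% ± 0.687 with guide 2, 47.3% ± 1.04 with guide 1 and 26.9% ± 1.98 in controls. Tpm4 supplied 43.7% ± 0.400 with guide 2, 31.9% ± 0.258 with guide 1 and 48.3% ± 1.49 in controls. Tpm4 was thus the leading tropomyosin gene with guide 2 and in the control, and Tpm1 the leading one with guide 1. These shares are descriptions over 3 libraries each and were not tested.

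**Figure D3:**
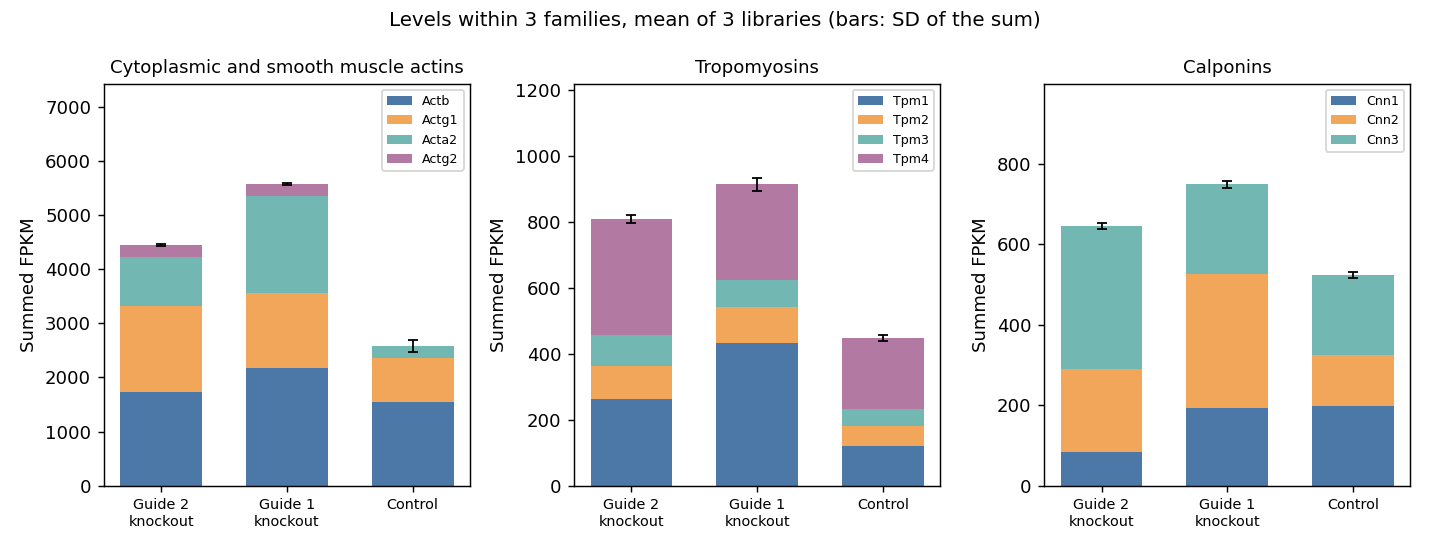
Stacked bars give the mean FPKM of each gene in the 4 actins, the 4 tropomyosins and the 3 calponins for guide 2 knockout, guide 1 knockout and control, with error bars for the SD of the sum over 3 libraries. Each summed level is higher in both knockouts than in the control, and the shares of Acta2, Tpm1 and Cnn3 differ between the knockouts.

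Calponins and caldesmon bind actin filaments and restrain myosin. Their genes went different ways. Cnn1, the calponin of smooth muscle, measured 82.8, 84.3 and 83.0 FPKM with guide 2, 192, 195 and 192 with guide 1 and 199.7, 200.4 and 196 in controls. It fell with guide 2 by 1.24 on the log2 scale (SE 0.035, limma adjusted p = 1.28e-09). With guide 1 its log2 fold change was -0.04 (limma adjusted p = 0.307), although the guide 1 libraries lay just below the controls, and the sign of this small value turned under quantile normalization and trimmed mean rescaling. Cnn2, the broadly expressed calponin, measured 208, 211 and 204 FPKM with guide 2, 325, 334 and 341 with guide 1 and 121, 124 and 132 in controls. It rose with log2 fold changes of 0.72 with guide 2 and 1.40 with guide 1 (SE 0.043 for each, limma adjusted p = 2.01e-07 and 1.33e-09), and no group overlapped another. Cnn3 measured 356, 356 and 351 FPKM with guide 2, 226, 219 and 225 with guide 1 and 204, 192 and 205 in controls. Its increase was larger with guide 2 than with guide 1, at 0.82 with guide 2 and 0.16 with guide 1 (limma adjusted p = 3.99e-08 and 0.0047). Of the summed calponin level, Cnn3 supplied 54.9% ± 0.190 with guide 2, 29.8% ± 0.570 with guide 1 and 38.2% ± 0.878 in controls. Cnn1 supplied 12.9% ± 0.111 with guide 2, 25.7% ± 0.351 with guide 1 and 37.9% ± 1.02 in controls (SD, n = 3 each). Cald1, which encodes caldesmon, measured 78.9, 82.7 and 86.8 FPKM with guide 2, 75.2, 70.4 and 78.7 FPKM with guide 1 and 54.1, 51.9 and 55.0 FPKM in controls. It rose with log2 fold changes of 0.62 with guide 2 and 0.47 with guide 1 (SE 0.054 for each, limma adjusted p = 3.46e-06 and 2.18e-05).

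Nonmuscle myosin II pulls on actin filaments and is built from a heavy chain, an essential light chain and a regulatory light chain that is switched on by phosphorylation. Myh9, the heavy chain of myosin IIA, measured 95.4, 111 and 113 FPKM with guide 2, 105, 107 and 118 with guide 1 and 53.7, 52.0 and 57.4 in controls. That is 1.96 times the control mean with guide 2 and 2.02 times with guide 1. The knockout libraries overlapped each other and lay above all controls, with log2 fold changes of 0.96 with guide 2 and 1.00 with guide 1 (SE 0.073 for each, limma adjusted p = 1.25e-06 and 7.17e-07). Myh10, the heavy chain of myosin IIB, measured 23.4, 26.8 and 27.8 FPKM with guide 2, 43.7, 46.0 and 47.7 with guide 1 and 20.9, 21.1 and 22.5 in controls. It rose by 0.26 with guide 2 and 1.06 with guide 1 on the log2 scale (limma adjusted p = 0.0055 and 2.24e-07), so its guide 2 libraries stood only a little above the controls. Myl12a, a regulatory light chain, measured 236, 217 and 208 FPKM with guide 2, 445, 397 and 406 with guide 1 and 194, 190.5 and 203 in controls. It rose by 0.17 with guide 2 and 1.08 with guide 1 (limma adjusted p = 0.0282 and 8.34e-08), and guide 2 differed from guide 1 by -0.92 (SE 0.059, limma adjusted p = 6.83e-07). The guide 2 call was lost without guide 2 replicate 1 or 2 or control replicate 1 or 2 (limma adjusted p between 0.052 and 0.092), and with no filter on low values (limma adjusted p = 0.0801). Myl12a shares 29.2% of its 50-base windows with its neighbour and close relative Myl12b, which was not analysed here, so its level is uncertain. Myl6, the essential light chain, averaged 178 ± 23.5 FPKM with guide 2, 194 ± 16.7 with guide 1 and 154 ± 11.5 in controls (SD, n = 3 each). It rose with guide 1 by 0.33 (limma adjusted p = 0.0102), and the guide 2 value was 0.21 (limma adjusted p = 0.0786), which passed without guide 2 replicate 3 (limma adjusted p = 0.0284) and after quantile normalization (limma adjusted p = 0.0154). Mylk, which encodes the myosin light chain kinase, measured 1.86, 2.07 and 2.13 FPKM with guide 2, 1.78, 2.11 and 1.89 with guide 1 and 1.26, 1.07 and 0.768 in controls. It was the least abundant member and rose by 0.58 with guide 2 and 0.53 with guide 1 (limma adjusted p = 0.000438 and 0.000667). With a pseudocount of 0.1 the changes of Mylk were 0.93 with guide 2 and 0.86 with guide 1.

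Alpha-actinins and filamins tie filaments into bundles and networks, and palladin and synaptopodin are scaffolds on those bundles. Actn1 measured 86.3, 96.4 and 107 FPKM with guide 2, 131, 132 and 145 with guide 1 and 48.1, 45.3 and 51.3 in controls. The means were 2.00 times the control mean with guide 2 and 2.82 times with guide 1. Its groups did not overlap, with log2 fold changes of 0.98 with guide 2 and 1.48 with guide 1 (SE 0.079 for each, limma adjusted p = 1.81e-06 and 6.77e-08). Actn4, its close relative, measured 126, 136 and 146 FPKM with guide 2, 141, 134 and 152 with guide 1 and 80.9, 75.2 and 82.7 in controls. It rose by 0.77 with guide 2 and 0.83 with guide 1 (limma adjusted p = 3.06e-06 and 1.37e-06), and the knockouts overlapped each other. The summed alpha-actinin level was 233 ± 19.8 FPKM with guide 2, 278 ± 16.9 with guide 1 and 128 ± 6.83 in controls (SD, n = 3 each), of which Actn1 supplied 41.4% ± 0.886 with guide 2, 48.9% ± 0.694 with guide 1 and 37.7% ± 0.514 in controls. Filip1l, named for a relative that binds filamin A, measured 12.0, 14.0 and 13.8 FPKM with guide 2, 28.7, 28.2 and 29.0 with guide 1 and 9.43, 10.1 and 10.4 in controls. Its guide 1 libraries were well above all others, with log2 fold changes of 0.37 with guide 2 and 1.43 with guide 1 (SE 0.063 for each, limma adjusted p = 0.000413 and 1.65e-08). Palld, which encodes palladin, averaged 27.0 ± 1.85 FPKM with guide 2, 21.9 ± 0.513 with guide 1 and 17.1 ± 0.179 in controls, with log2 fold changes of 0.63 with guide 2 and 0.34 with guide 1 (limma adjusted p = 2.81e-06 and 0.000235). Flnc, the filamin best known in muscle, averaged 18.6 ± 2.02 FPKM with guide 2, 20.0 ± 1.87 with guide 1 and 15.4 ± 0.582 in controls, with log2 fold changes of 0.26 with guide 2 and 0.35 with guide 1 (limma adjusted p = 0.0224 and 0.00387). The guide 2 call of Flnc was lost without guide 2 replicate 2 or 3 or control replicate 1 or 2 (limma adjusted p between 0.059 and 0.0873), and with no filter on low values (limma adjusted p = 0.0618). Synpo, which encodes synaptopodin, an alpha-actinin partner known from kidney podocytes and dendritic spines, went the other way. It measured 10.9, 12.8 and 12.3 FPKM with guide 2, 13.6, 14.6 and 15.6 with guide 1 and 33.6, 32.6 and 28.2 in controls. Every knockout library was far below the lowest control, with log2 fold changes of -1.32 with guide 2 and -1.06 with guide 1 (SE 0.081 for each, limma adjusted p = 2.42e-07 and 9.95e-07).

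Filament turnover was represented by Dstn and Wdr1. Dstn, which encodes the severing factor destrin, measured 174, 165 and 166 FPKM with guide 2, 357, 351 and 347 with guide 1 and 107, 107 and 105 in controls. That is 1.59 times the control mean with guide 2 and 3.31 times with guide 1. The 3 groups were clearly apart, with log2 fold changes of 0.66 with guide 2 and 1.72 with guide 1 (SE 0.038 for each, limma adjusted p = 1.54e-07 and 1.58e-10). Wdr1 encodes a cofactor that speeds disassembly of filaments by cofilin and destrin. It measured 55.3, 56.0 and 55.3 FPKM with guide 2, 47.3, 44.9 and 45.5 with guide 1 and 38.2, 36.2 and 38.8 in controls. Here the guide 2 libraries were highest, with log2 fold changes of 0.55 with guide 2 and 0.28 with guide 1 (limma adjusted p = 1.42e-06 and 0.000188).

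Among the core proteins of focal adhesions, Vcl and Tes rose while Zyx fell. Vcl encodes vinculin, which couples talin to actin, and its promoter holds a CArG box. It measured 41.0, 46.7 and 48.5 FPKM with guide 2, 51.3, 51.0 and 57.2 with guide 1 and 16.7, 14.6 and 17.9 in controls. The means were 2.77 times the control mean with guide 2 and 3.24 times with guide 1. All knockout libraries were above all controls, with log2 fold changes of 1.42 with guide 2 and 1.64 with guide 1 (SE 0.084 for each, limma adjusted p = 2e-07 and 5.15e-08). Tes, which encodes testin, a LIM protein that binds zyxin, measured 31.7, 29.0 and 30.9 FPKM with guide 2, 23.8, 22.5 and 22.9 with guide 1 and 9.97, 10.4 and 10.5 in controls. It rose more with guide 2, with log2 fold changes of 1.48 with guide 2 and 1.09 with guide 1 (SE 0.049 for each, limma adjusted p = 3e-09 and 1.81e-08). Zyx, which encodes zyxin, a LIM protein that moves to strained stress fibres, measured 114, 122 and 126 FPKM with guide 2, 102, 102 and 109 with guide 1 and 200.3, 193 and 243 in controls. Control replicate 3 was the highest library, and every knockout library was far below the controls, with log2 fold changes of -0.80 with guide 2 and -1.01 with guide 1 (SE 0.08 for each, limma adjusted p = 9.62e-06 and 1.39e-06). Pxn, the adaptor paxillin, measured 16.1, 16.8 and 16.5 FPKM with guide 2, 14.8, 13.4 and 15.3 FPKM with guide 1 and 18.0, 17.9 and 18.3 FPKM in controls. It fell with guide 1 by 0.30 on the log2 scale (limma adjusted p = 0.000472). The guide 2 value was -0.13 (limma adjusted p = 0.0529), which passed without guide 1 replicate 2 (limma adjusted p = 0.0264), with a filter of 5 FPKM (limma adjusted p = 0.0491) and when only the libraries compared were fitted (limma adjusted p = 0.0401). The direction of Vcl and Zyx therefore differed within the same set of adhesion components.

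The LIM proteins of stress fibres and adhesions held the largest increases. Tgfb1i1, which encodes Hic-5, a relative of paxillin, measured 19.7, 23.3 and 21.9 FPKM with guide 2, 27.1, 30.6 and 30.4 with guide 1 and 4.45, 5.09 and 5.12 in controls. It had log2 fold changes of 1.94 with guide 2 and 2.37 with guide 1 (SE 0.076 for each, limma adjusted p = 1.01e-08 and 1.69e-09), which is 4.43 times the control mean with guide 2 and 6.01 times with guide 1. Fhl1, a LIM-only protein known in muscle, measured 131, 129 and 135 FPKM with guide 2, 308, 284 and 307 with guide 1 and 55.4, 54.0 and 67.0 in controls. The 3 groups were widely apart, with log2 fold changes of 1.15 with guide 2 and 2.34 with guide 1 (SE 0.075 for each, limma adjusted p = 3.79e-07 and 1.69e-09). Fhl2, a LIM-only protein that is itself an SRF target and binds SRF, measured 40.7, 42.1 and 40.6 FPKM with guide 2, 73.7, 69.1 and 71.0 with guide 1 and 25.1, 25.7 and 29.1 in controls. It rose with log2 fold changes of 0.61 with guide 2 and 1.39 with guide 1 (SE 0.058 for each, limma adjusted p = 6.3e-06 and 1.07e-08). Csrp2, a small LIM protein first described in smooth muscle, measured 48.2, 39.7 and 38.5 FPKM with guide 2, 34.1, 34.4 and 33.5 with guide 1 and 10.7, 11.3 and 12.5 in controls. It rose more with guide 2, with log2 fold changes of 1.78 with guide 2 and 1.49 with guide 1 (SE 0.083 for each, limma adjusted p = 3.27e-08 and 9.35e-08). Its relative Csrp1 averaged 245 ± 11.8 FPKM with guide 2, 483 ± 8.96 with guide 1 and 208 ± 3.55 in controls (SD, n = 3 each), with log2 fold changes of 0.24 with guide 2 and 1.22 with guide 1 (limma adjusted p = 0.000677 and 3.72e-09). Lima1, which encodes the filament stabiliser EPLIN, averaged 38.7 ± 0.899 FPKM with guide 2, 53.5 ± 1.46 with guide 1 and 35.8 ± 1.78 in controls. It rose with guide 1 by 0.57 (limma adjusted p = 2.07e-06), and the guide 2 value was 0.11 (limma adjusted p = 0.0635), which passed without control replicate 1 (limma adjusted p = 0.0346), after quantile normalization (limma adjusted p = 0.0153) and after trimmed mean rescaling (limma adjusted p = 0.0212). Limd1, a LIM protein of the Ajuba family, averaged 8.74 ± 0.896 FPKM with guide 2, 7.52 ± 0.671 with guide 1 and 5.33 ± 0.0748 in controls, with log2 fold changes of 0.62 with guide 2 and 0.43 with guide 1 (limma adjusted p = 5.58e-05 and 0.000681).

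PDZ-LIM proteins dock on alpha-actinin and tropomyosin through their PDZ domain and carry LIM domains at the other end. Of the 5 genes, 4 rose with each guide. Pdlim5 measured 29.7, 29.5 and 31.4 FPKM with guide 2, 28.1, 25.6 and 27.8 with guide 1 and 8.03, 7.37 and 7.91 in controls. It rose with each guide, with log2 fold changes of 1.83 with guide 2 and 1.68 with guide 1 (SE 0.053 for each, limma adjusted p = 1.63e-09 and 1.56e-09). Pdlim7 measured 21.3, 22.5 and 21.1 FPKM with guide 2, 40.3, 39.2 and 41.9 with guide 1 and 11.5, 12.3 and 13.1 in controls. It rose by 0.77 with guide 2 and 1.65 with guide 1 (limma adjusted p = 7.62e-07 and 2.34e-09), and the 3 groups did not overlap. Pdlim2 measured 3.06, 3.00 and 3.73 FPKM with guide 2, 6.87, 6.45 and 5.91 FPKM with guide 1 and 1.99, 1.57 and 1.55 FPKM in controls, with log2 fold changes of 0.66 with guide 2 and 1.46 with guide 1 (limma adjusted p = 0.00011 and 2.29e-07). Pdlim1 averaged 16.0 ± 0.593 FPKM with guide 2, 33.2 ± 0.975 with guide 1 and 12.4 ± 0.830 in controls (SD, n = 3 each), with log2 fold changes of 0.35 with guide 2 and 1.36 with guide 1 (limma adjusted p = 0.000264 and 9.37e-09). Pdlim4 was the exception. It measured 2.83, 1.85 and 2.03 FPKM with guide 2, 1.37, 1.04 and 1.41 with guide 1 and 4.02, 4.36 and 3.70 in controls. It fell with both guides, with log2 fold changes of -0.64 with guide 2 and -1.15 with guide 1 (SE 0.12 for each, limma adjusted p = 0.000641 and 8.38e-06).

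The knockouts were then compared with each other, a test in which the control cancels. Of the 42 members, 12 were higher and 22 lower with guide 2 than with guide 1, where 31.2% and 23.3% of all genes were. The median difference of the members was -0.17 log2 units, against 0.04 over all genes tested. Of the 37 members above the control in the mean of both knockouts, 10 were higher with guide 2, 20 were lower with guide 2, and 7 were not called between the guides. At 1 log2 unit or more, 5 members were lower with guide 2 and 0 higher, where 2.71% and 2.3% of all genes were. These 5 were Cnn1, Fhl1, Filip1l, Dstn and Pdlim1. Cnn1 differed by -1.20 (SE 0.035, limma adjusted p = 3.32e-09). Fhl1 differed by -1.18 (SE 0.075, limma adjusted p = 5.85e-07), Filip1l by -1.06 (SE 0.063, limma adjusted p = 3.75e-07), Dstn by -1.06 (SE 0.038, limma adjusted p = 1.15e-08) and Pdlim1 by -1.01 (SE 0.055, limma adjusted p = 2.06e-07). In the other direction the largest differences were in Cnn3, at 0.66 (SE 0.039, limma adjusted p = 3.6e-07), Pdlim4, at 0.50 (SE 0.12, limma adjusted p = 0.00402), Tes, at 0.39 (SE 0.049, limma adjusted p = 7.29e-05), and Csrp2, at 0.30 (SE 0.083, limma adjusted p = 0.0117). Some close relatives fell on the same side. Fhl1 and Fhl2 were both lower with guide 2 (-1.18 and -0.78), as were Pdlim1, Pdlim2 and Pdlim7 (-1.01, -0.80 and -0.87). Pdlim4 and Pdlim5 were both higher (0.50 and 0.15). In the 4 pairs that follow, relatives fell on opposite sides. Tpm1 was lower with guide 2 by 0.72 and Tpm4 higher by 0.28, Actb lower by 0.33 and Actg1 higher by 0.20, Cnn2 lower by 0.68 and Cnn3 higher by 0.66, and Csrp1 lower by 0.98 and Csrp2 higher by 0.30, all called on the log2 scale. Both members of each of these 4 pairs were called higher than the control with each guide.

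**Figure D4:**
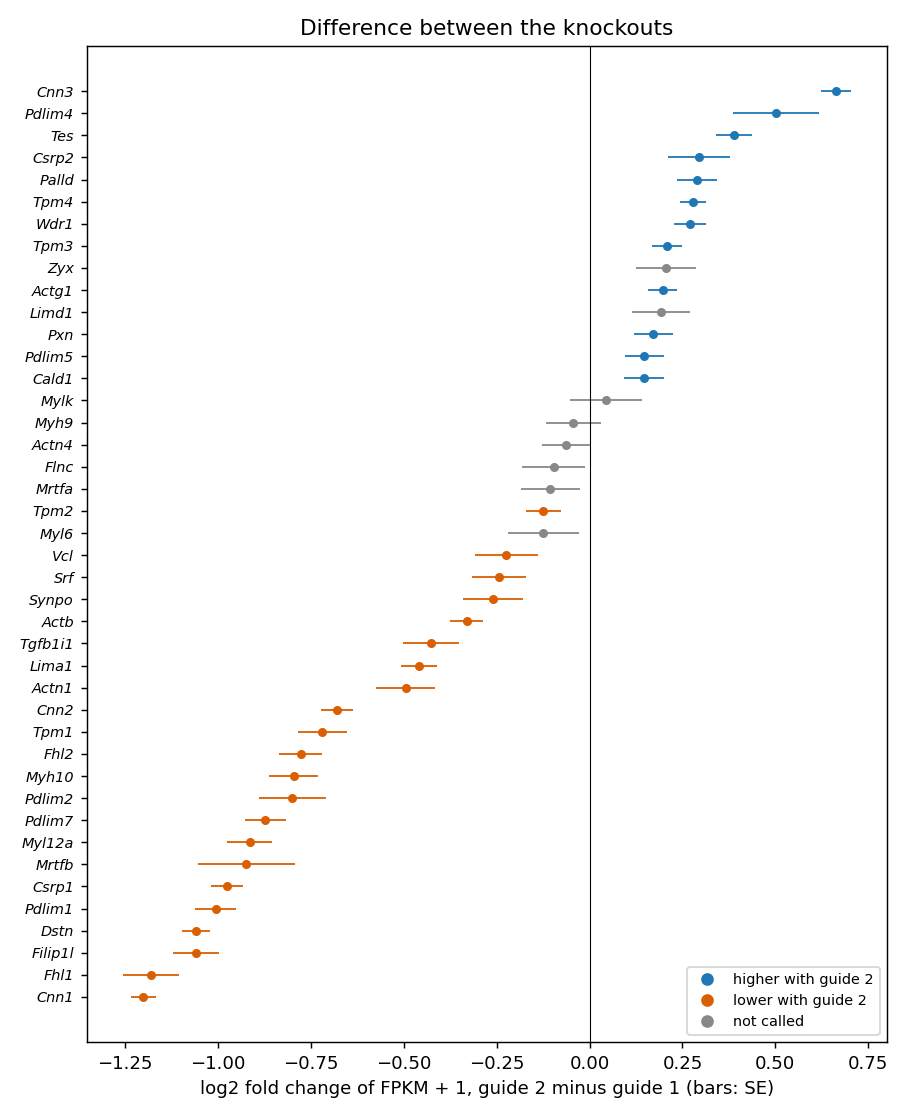
Points give the log2 fold change of guide 2 minus guide 1 for each of the 42 members, with bars for the SE of the limma fit, in blue where called higher with guide 2, in orange where called lower and in grey where not called. The 22 lower genes reach -1.20 at Cnn1, and the 12 higher genes reach 0.66 at Cnn3.

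Some of the smaller differences between the guides rested on few libraries. The call of Srf (-0.24) was lost without guide 1 replicate 3 or guide 2 replicate 1 or 2 (limma adjusted p between 0.0521 and 0.0628). The call of Vcl (-0.22) was lost without guide 1 replicate 1, 2 or 3, guide 2 replicate 1 or 2 or control replicate 1 (limma adjusted p between 0.0583 and 0.158). The call of Synpo (-0.26) was lost without guide 1 replicate 3 or guide 2 replicate 1 (limma adjusted p between 0.0713 and 0.0728), and that of Pxn (0.17) without guide 1 replicate 2 or guide 2 replicate 2 (limma adjusted p between 0.0621 and 0.0646). The call of Tpm2 (-0.12) was lost without guide 1 replicate 2 or 3, guide 2 replicate 1, 2 or 3 or control replicate 1 or 2 (limma adjusted p between 0.0509 and 0.176). The call of Cald1 (0.15) was lost without guide 1 replicate 1 or 2, guide 2 replicate 2 or 3 or control replicate 1 (limma adjusted p between 0.0555 and 0.152), and that of Pdlim5 (0.15) without guide 1 replicate 2 or 3 or guide 2 replicate 1, 2 or 3 (limma adjusted p between 0.0522 and 0.139). Zyx (0.21, limma adjusted p = 0.0524) was called without guide 2 replicate 1 or control replicate 2 or 3 (limma adjusted p between 0.00562 and 0.0412), Limd1 (0.19, limma adjusted p = 0.0618) without guide 1 replicate 3 or guide 2 replicate 1 (limma adjusted p between 0.01 and 0.0406), and Myl6 (-0.12, limma adjusted p = 0.304) without guide 2 replicate 1 (limma adjusted p = 0.0446). With no filter on low values the calls of Actg1, Tpm2, Cald1, Synpo, Vcl and Pdlim5 were lost, with limma adjusted p between 0.0514 and 0.117. Quantile normalization lost those of Tpm2 and Cald1 (limma adjusted p = 0.155 and 0.137), and trimmed mean rescaling those of Cald1 and Pdlim5 (limma adjusted p = 0.0568 and 0.0533). Constant prior variance lost those of Tpm2, Cald1 and Vcl (limma adjusted p = 0.0748, 0.061 and 0.0567), and fitting only the libraries compared those of Tpm2 and Cald1 (limma adjusted p = 0.0519 and 0.0544). Zyx was also called with the filter of 5 FPKM (limma adjusted p = 0.046), after quantile normalization (limma adjusted p = 0.0284) and when only the libraries compared were fitted (limma adjusted p = 0.0104). Some called differences kept their call and moved in size: Csrp2 was 0.20 without guide 2 replicate 1, Pdlim4 was 0.76 with a pseudocount of 0.1, and Actg1 was 0.33 after quantile normalization. Quantile normalization gives genes of the same rank the same value and set the difference of Actb between the guides to 0. It therefore cannot compare Actb between guides, nor size its change against control.

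Other genes of the same pathway were listed apart from the members, and their changes are log2 fold changes against control. Their counts stand against 31.9% of all genes called higher and 33.5% lower with guide 2, and 30.2% and 37.9% with guide 1. Of 16 other targets of MRTF and SRF, 10 were tested, of which 9 rose with guide 2 and 10 with guide 1, and none fell, Tagln being the one not called with guide 2. Lmod1 had a control mean under 1 FPKM and passed the level only through the knockouts. The list medians were 1.57 with guide 2 and 2.96 with guide 1. Actg2, the enteric smooth muscle actin, averaged 219 ± 3.65 FPKM with guide 2, 226 ± 6.32 with guide 1 and 7.53 ± 0.789 in controls (SD, n = 3 each), and Myl9, a regulatory light chain of myosin, 153 ± 7.74 FPKM with guide 2, 135 ± 5.64 with guide 1 and 19.2 ± 2.03 in controls. Of the 9 listed immediate early genes that SRF serves together with ternary complex factors, 4 were tested and all 4 rose with each guide, with medians of 1.53 for guide 2 and 1.13 for guide 1. Egr1, a zinc finger transcription factor, changed by 2.21 with guide 2 and 1.18 with guide 1. Nr4a1, a nuclear receptor, changed by 1.68 with guide 2 and 1.61 with guide 1. Of the 4 listed genes for ternary complex factors and myocardin, 2 were tested, of which 1 rose with guide 2 and 2 with guide 1, and Elk3 changed by 0.43 with guide 2 and 0.20 with guide 1.

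Of 17 genes for the Arp2/3 complex and its activators, which build branched networks, 13 were tested, of which 1 rose and 5 fell with guide 2, and 5 rose and 5 fell with guide 1. Apart from the 1 that rose with guide 2, these shares lie near those of all genes. Their medians were -0.04 with guide 2 and -0.07 with guide 1. The number called higher was unsteady: with guide 2 it was 2 without guide 2 replicate 1, 0 without guide 2 replicate 2 or control replicate 3 and 4 after quantile normalization, and with guide 1 it was 3 without guide 1 replicate 1, without control replicate 2 or with no filter on low values. Arpc1a, a subunit of the complex, changed by -0.68 with guide 2 and -0.73 with guide 1, and Arpc1b by -0.23 with guide 2 and -0.57 with guide 1. Abi1 and Arpc5 rose with guide 1, by 0.57 and 0.59, and their guide 2 values were 0.07 and 0.10 (limma adjusted p = 0.256 and 0.168).

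Of 18 genes that bind actin monomers or cap filaments, 11 were tested, of which 8 rose and 1 fell with each guide, with medians of 0.24 for guide 2 and 0.46 for guide 1. Twf2, a twinfilin, changed by 1.44 with guide 2 and 0.70 with guide 1, and the capping gene Capg by 1.26 with guide 2 and 0.57 with guide 1, while Pfn2, a profilin, fell, at -1.42 with guide 2 and -1.71 with guide 1. Of 29 other focal adhesion genes 21 were tested, of which 16 rose and 2 fell with guide 2, and 14 rose and 2 fell with guide 1, with medians of 0.42 and 0.48. Of these, Parvb, Ptk2b, Lims2 and Tns4 had a control mean under 1 FPKM and passed the level only through the knockouts, Lims2 only through guide 1. Their called increases, 4 with each guide, are tied to that filter, so the counts and medians of this list support nothing. Parvb, which encodes beta-parvin, averaged 4.16 ± 0.452 FPKM with guide 2, 23.1 ± 0.869 with guide 1 and 0.614 ± 0.114 in controls (SD, n = 3 each). Tns2, a tensin, changed by 1.48 with guide 2 and 1.20 with guide 1, and Trip6, a relative of zyxin, fell, at -0.88 with guide 2 and -0.34 with guide 1. Layn, a hyaluronan receptor that binds talin, fell with guide 1, at -0.62, and its guide 2 value was -0.12 (limma adjusted p = 0.0539). Of 12 bundling and membrane linker genes 5 were tested, of which 3 rose and 1 fell with guide 2, and 3 rose and 2 fell with guide 1, with medians of 0.13 and 1.08. Ezr, which encodes ezrin, changed by 1.04 with guide 2 and 1.17 with guide 1, and Vasp, an actin elongation factor, by 0.74 with guide 2 and 1.08 with guide 1. Marcks, a membrane-bound actin crosslinker, averaged 76.6 ± 4.21 FPKM with guide 2, 111 ± 2.92 with guide 1 and 273 ± 21.8 in controls (SD, n = 3 each), and Rdx, which encodes radixin, changed by -0.32 with guide 1, with a guide 2 value of -0.09 (limma adjusted p = 0.192).

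**Figure D5:**
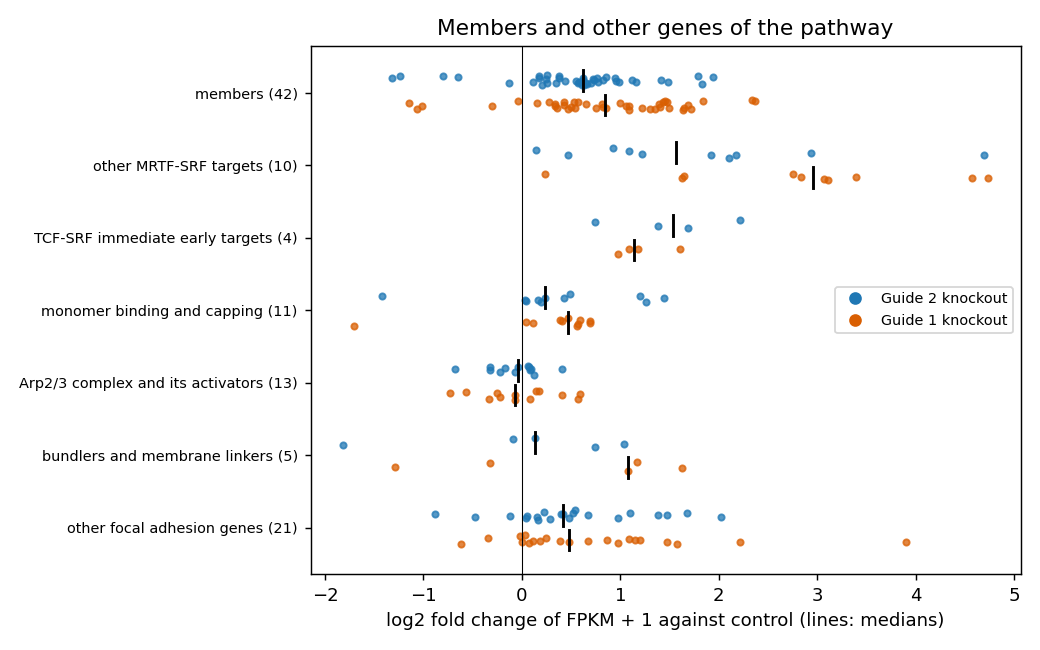
Points are genes, placed by their log2 fold change against control with guide 2 in blue and guide 1 in orange, for the members and for other lists, with the number of genes tested in brackets and black lines at the medians. The other MRTF and SRF targets lie farthest to the right, with medians of 1.57 and 2.96, and the Arp2/3 list centres near 0.

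Markers of other cell types were read beside these increases. Of 13 smooth muscle and pericyte markers, 8 were analysed and 3 tested, Acta2, Tagln and Lmod1, all of which also stand in the list of other MRTF and SRF targets. The 3 rose with guide 1, and Acta2 and Lmod1 rose with guide 2, where the value of Tagln was 0.14 (limma adjusted p = 0.13). The summed level of the 8 markers ranged from 910.4 to 932 FPKM with guide 2, from 1999 to 2059 FPKM with guide 1 and from 216 to 227 FPKM in the control. Myh11, the defining myosin of smooth muscle, was at most 0.0501 FPKM with guide 2, 0.0486 FPKM with guide 1 and 0.0202 FPKM in the control. Of 15 fibroblast markers 6 were analysed, with sums from 62.0 to 72.5 FPKM with guide 2, from 68.6 to 72.5 FPKM with guide 1 and from 83.3 to 85.9 FPKM in the control. Twist2 rose, at 0.92 with guide 2 and 1.54 with guide 1. Col5a1 fell, at -0.59 with guide 2 and -0.43 with guide 1. Postn rose with guide 2, by 1.96, and its guide 1 value was 0.20 (limma adjusted p = 0.19). Of 13 skeletal muscle markers 5 were analysed, and none reached a mean of 1 FPKM. The endothelial and leukocyte lists had 1 tested gene each, Egfl7 and Cd68. Egfl7 changed by 0.54 with guide 2 and 0.36 with guide 1. Cd68 averaged 2.16 ± 0.347 FPKM with guide 2, 1.35 ± 0.173 with guide 1 and 0.652 ± 0.205 in controls (SD, n = 3 each) and passed the level only through the knockouts. Sums were at most 3.76 FPKM in any library for the endothelial markers and 2.67 FPKM for the leukocyte markers. Markers of squamous epithelium summed to 99.1 to 105 FPKM with guide 2, 258 to 259 FPKM with guide 1 and 85.3 to 94.5 FPKM in the control. Much of the guide 1 rise in that sum came from Krt18, a keratin of simple epithelia. Krt18 averaged 5.01 ± 0.910 FPKM with guide 2, 119 ± 6.56 with guide 1 and 3.70 ± 0.561 in controls (SD, n = 3 each). It changed by 0.35 with guide 2 and 4.68 with guide 1. The part of such cells in the increases above was not tested.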

How the data were processed

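Poly(A) RNA was made into strand-specific libraries with a TruSeq kit and sequenced as paired ends on an Illumina sequencer, per the labels' protocols. The submitters' processing notes name StringTie, HISAT2, FastQC and cutadapt, with no version. No source used here gives the genome build or annotation. The deposited unit is FPKM per gene and library, computed by the authors. It holds no read totals, so no count test was run. Of 15620 rows, 174 that share a symbol were left out.

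Genes at a mean of at least 1 FPKM entered limma 3.58.1 (R 4.3.3) on log2(FPKM + 1), which understates changes of low genes, with a mean-dependent prior variance and all 9 libraries in 1 fit. P-values were adjusted by Benjamini-Hochberg over 6965 genes, with calls at 0.05. Contrasts were each knockout and their mean against control, and guide 2 against guide 1. Sequence overlaps were read from GENCODE vM21 transcripts.

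Members and lists were chosen with earlier results of these data known. Every kept member is named. Values in every library are given for Actb, Actg1 and Srf, for up to 4 members per role with the largest mean change, and for the 4 largest called differences between guides in each direction. Each other list gives up to 2 called genes per direction by the contrast of both knockouts with control, at 5 FPKM or above. Postn, Tagln, Egfl7, Cd68, Ptk2b, Lims2, Tns4 and the read-sharing genes were named after their values were seen. Alternatives tried were another pseudocount, other filters, rescalings, a replicate block, a constant prior, only the libraries compared, enlarged p-values and leaving out each library.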

Additional observations from a re-analysis of the deposited data

Results flagged for a closer look

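Guide 2 and guide 1 are set against the same control, and for 34 of the 42 members their effects differed from each other in the limma contrast of guide 2 minus guide 1, 12 higher and 22 lower, where 31.2% and 23.3% of all genes were called (Benjamini-Hochberg adjusted p from 3.32e-09 to 0.0474). All values below are that difference in log2(FPKM + 1), and a negative one means a lower level with guide 2. The lowest were Cnn1 -1.20, Fhl1 -1.18, Filip1l -1.06, Dstn -1.06, Pdlim1 -1.01, Csrp1 -0.98, Myl12a -0.92 and Mrtfb -0.92. Next came Pdlim7 -0.87, Pdlim2 -0.80, Myh10 -0.80, Fhl2 -0.78, Tpm1 -0.72, Cnn2 -0.68 and Actn1 -0.49. Smaller negative differences were Lima1 -0.46, Tgfb1i1 -0.43, Actb -0.33, Synpo -0.26, Srf -0.24, Vcl -0.22 and Tpm2 -0.12. Positive differences were led by Cnn3 0.66, Pdlim4 0.50, Tes 0.39, Csrp2 0.30, Palld 0.29 and Tpm4 0.28, and followed by Wdr1 0.27, Tpm3 0.21, Actg1 0.20, Pxn 0.17, Cald1 0.15 and Pdlim5 0.15. Cnn1 is the one gene of these whose guide 2 change was called and whose guide 1 change was not, and the difference itself was tested. Pxn, Myl6 and Lima1 had a called change with guide 1 and not with guide 2, and of these Pxn and Lima1 differed between the guides while Myl6 (-0.12, limma adjusted p = 0.304) was not called. The cause of these differences was not tested. No group had the 4 libraries that a search for outlying samples needs.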

How the results depend on the processing

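Of 2924 member fold changes recomputed under the alternatives, 2840 kept their direction and their side of the threshold. Of the rest, 61 lost a call, 18 gained one and 5 changed sign, all 5 from values not called or set by construction. Filters, the replicate block, the constant prior, enlarged p-values and fitting only the libraries compared cannot alter a fold change, only its call. Nor can leaving out a library outside the contrast. Directions kept there are no measure of stability. Cnn1 with guide 1 was 0.0377 after quantile normalization and 0.0040 after trimmed mean rescaling. Actb between the guides was 0 after quantile normalization, which gives genes of the same rank the same value. Myh9 between the guides ranged from -0.088 without guide 2 replicate 3 to 0.035 without guide 2 replicate 1, and was 0.0071 without guide 1 replicate 3. No count of members or of all genes called moved by over 1.5 times. Members called higher ranged from 31 to 37 with guide 2 and from 34 to 37 with guide 1, and members called lower from 4 to 5 and from 3 to 4. The lowest guide 1 counts came from the filter of 5 FPKM, which left 38 members to test. No guide 1 call of a tested member was lost. Between the guides 9 to 13 were higher and 18 to 22 lower with guide 2. Leaving out 1 library gave 32 to 35 members higher with guide 2 and 37 with guide 1. The call of Myl6 in the mean of both knockouts was lost without control replicate 1 (limma adjusted p = 0.0627).

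In their deviations from the group means, same-numbered libraries correlated between -0.107 and 0.245 and differently numbered ones between -0.234 and 0.163. Between the 2 guides, the same-numbered pairs gave 0.245, 0.022 and 0.210, and differently numbered ones lay between -0.234 and 0.042. Whether replicate numbers mark paired libraries was not tested. With the replicate block, 35 members were higher and 4 lower with guide 2, 37 and 4 with guide 1, and 13 and 22 between the guides, where Zyx gained its call (limma adjusted p = 0.0183). Leaving out 1 of 3 libraries cannot move a group mean by 1 SD, so it says nothing about the family sums and shares. Rescaling a library leaves its shares as they were, by construction. After trimmed mean rescaling 3 sums with guide 1, of the calponins and both actin sets, moved by more than 1 SD. The fit of only the libraries compared was not run for the mean of both knockouts, which already uses all 9. FPKM carries no depth, so counting error is unknown, and 1 clone per guide with 3 libraries limits every value.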
